A study of Mus musculus with 8 samples.

Results

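Prox1, Calb1, Rbfox3, Dsp, C1ql2, Plk5, Tdo2 and Trpc6, markers of mature granule neurons in the dentate gyrus (DG), were followed in 2 mouse lines. The 8 genes were taken by their symbols in the array annotation, which gave 15 probes, and the rule used no measured value. They stood among 19919 genes, measured by 40001 probes, that were well above background on both arrays of at least 1 group. RNA came from the DG of male C57BL/6 mice at 8 to 9 weeks of age and was hybridised to 8 Agilent SurePrint arrays with 1 colour each, which gave 4 groups of 2 arrays. The Derlin proteins sit in the membrane of the endoplasmic reticulum and help to remove misfolded proteins. The Derlin-1 control and Derlin-2 control groups carried Derl1 or Derl2 flanked by loxP sites on both alleles and no Cre. The Derlin-1 KO and Derlin-2 KO groups carried the same floxed alleles together with Cre recombinase driven by the nestin promoter, which is active in neural progenitors, so that neurons and glia of the central nervous system are both targeted. KO therefore differed from control by the Cre transgene as well as by the deletion. Only the sample titles separate KO from control, because the genotype given for the KO samples is the floxed one alone. The study's methods speak of duplicate measurements, and nothing states that the 2 arrays of a group came from separate mice, so p-values measure only the spread between these samples, which may be technical.

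Granule neurons are the principal excitatory neurons of the DG and the cell type that adult neurogenesis keeps adding to. A newborn neuron loses its immature markers as it matures and gains calbindin and NeuN, while the homeobox factor Prox1 marks the granule lineage throughout. Several genes of other classes, such as those for a desmosomal protein, a tryptophan-degrading enzyme and a polo-like kinase, are also enriched in these cells and serve as markers of the granule cell layer. NeuN, the product of Rbfox3, is made by most mature neurons, and calbindin by some interneurons and pyramidal neurons, so these 2 markers are not particular to granule neurons.

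An array had 67.6% to 70.8% of its 56605 probes well above background and 0 saturated spots. Pearson's r across probes was 0.987 to 0.995 within a group and 0.966 to 0.985 between the lines. The 2 lines lay on separate slides, so slide and line cannot be told apart, whereas KO and control of a line shared a slide. The targeted genes were read first. Both Derl2 probes were lower in Derlin-2 KO, by a log2 difference of -0.65 for the brighter probe and -1.05 for the other, with adjusted limma p-values of 0.257 and 0.217. The brighter Derl1 probe differed by -0.20 in Derlin-1 KO and the other by 0.46, and where these probes lie relative to the deleted part is not given in the sources used here. The Derlin-1 KO label was therefore not checked by its own gene. In bulk tissue, fewer cells of a type and less RNA per cell cannot be told apart, which holds for every value that follows.

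All 15 probes of the 8 markers were well above background on all 8 arrays. With limma, 0 of the 8 genes passed an adjusted p of 0.05 in the Derlin-1 line, where 0% of all probes tested did so. The count was also 0 in the Derlin-2 line, against 0.0452% of all probes, and 0 for the difference of the KO effects, against 0.00754%. At an unadjusted p under 0.05, limma gave 2 markers for Derlin-1 (C1ql2 and Plk5) and 1 for Derlin-2 (Tdo2), beside 846 and 920 of all genes. The median log2 change of the 8 markers was -0.086 with Derlin-1 KO and 0.013 with Derlin-2 KO, beside -0.020 and 0.0079 over all genes. The Derlin-1 median rested on few arrays and genes, since it was -0.18 without Derlin-1 control replicate 2, -0.0019 without Derlin-1 KO replicate 2 and -0.0086 without Rbfox3. A change of at least 1.5-fold in either direction, with no p, was met by 1 marker for Derlin-1 (Plk5), 0 for Derlin-2 and 2 in the difference of the KO effects (Plk5 and C1ql2), beside 4.11%, 4.6% and 8.87% of all genes. Signals are given below as quantile-normalized log2 values of the brightest probe of a gene, and they compare arrays for 1 probe but not probes with each other.

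**Figure D1:**
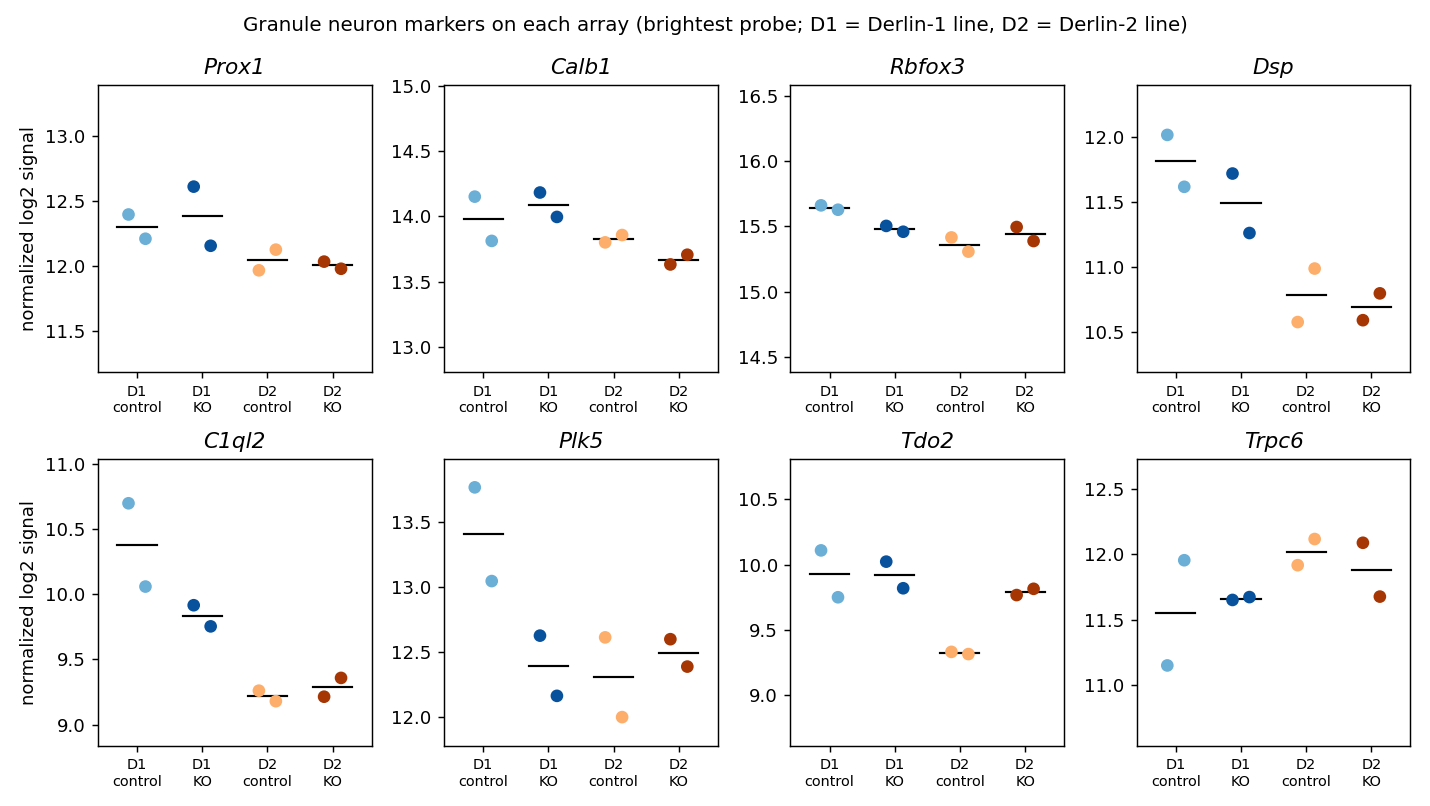
Normalized log2 signal (y axis) of the brightest probe of each marker on every array (points) in the 4 groups (x axis), with the group mean as a bar; each panel spans the same range on the log2 scale. Plk5, C1ql2 and Rbfox3 lie lower on both Derlin-1 KO arrays than on both Derlin-1 control arrays, and Tdo2 lies higher on both Derlin-2 KO arrays than on both Derlin-2 control arrays.

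In the Derlin-1 line, both KO arrays lay below both control arrays for 3 of the 8 markers, which compares with 17.9% of all genes. Both KO arrays lay above both controls for 0 markers, against 16.2% of all genes. The 3 genes were Plk5, C1ql2 and Rbfox3.

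Plk5 encodes a polo-like kinase family member that is expressed in the brain, and it had the largest difference among the 8 markers. Its single probe read 13.76 and 13.04 in Derlin-1 control and 12.63 and 12.16 in Derlin-1 KO. All KO values were below both controls, yet the control arrays were 0.72 apart. The log2 change was -1.01 (SE 0.32, 95% interval -1.79 to -0.23), a level 2.01-fold higher in control, with an unadjusted limma p of 0.019 and an adjusted p of 0.9999. The change was -0.65 when Derlin-1 control replicate 1 was left out and -1.37 when control replicate 2 was. For Derlin-2, Plk5 read 12.61 and 12.002 in control and 12.60 and 12.39 in KO. These groups overlapped, with a log2 change of 0.19 (SE 0.32). The group means were 12.40 in Derlin-1 KO, 12.31 in Derlin-2 control and 12.49 in Derlin-2 KO, close to each other, while the mean of Derlin-1 control was 13.40 ± 0.51 (SD, n = 2). The difference of the KO effects, Derlin-1 minus Derlin-2, was -1.19 (SE 0.45), with an adjusted limma p of 0.834. The Plk5 probe lies in the last eighth of the array's rows. There, 1.81% of the probes kept differed by at least as much as Plk5 in the Derlin-1 line, against 0.829% in the other rows. Among bright probes, with a mean log2 signal over 11, the shares were 0.188% of 1065 and 0.0611% of 8178 probes. Plk5 is itself counted in the shares of the last eighth, and the shares of bright probes rest on few probes. The part that array position had in the Plk5 value was not tested.

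C1ql2 encodes a secreted C1q-like protein that granule neurons release at their mossy fibre synapses. It read 10.697 and 10.06 in Derlin-1 control and 9.92 and 9.75 in Derlin-1 KO. The KO arrays were the lower pair, and the second control array was much nearer to them than the first. The log2 change was -0.54 (SE 0.21, 95% interval -1.06 to -0.022), with an unadjusted limma p of 0.043 and an adjusted p of 0.9999. It was -0.22 without Derlin-1 control replicate 1 and -0.86 without Derlin-1 control replicate 2. The Derlin-2 arrays of C1ql2 read 9.26 and 9.18 in control and 9.21 and 9.36 in KO, which overlapped and differed by 0.066 (SE 0.21). From highest to lowest mean, the order was control and then KO of the Derlin-1 line followed by KO and then control of the Derlin-2 line, and the last 2 groups did not differ beyond their spread.

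Rbfox3 encodes the splicing factor NeuN. Its brightest probe read 15.66 and 15.63 in Derlin-1 control and 15.50 and 15.46 in Derlin-1 KO. The arrays of each group lay close together, and the gap between the groups was small, at -0.16 (SE 0.099, adjusted limma p of 0.9999). The other 2 Rbfox3 probes gave -0.10 and -0.023, and in both of them the groups overlapped. On the Derlin-2 arrays the brightest probe read 15.42 and 15.31 in control and 15.50 and 15.39 in KO, a log2 change of 0.080 (SE 0.099). Rbfox3 had the narrowest range of the 8 markers, with 0.35 between the lowest and the highest of the 8 arrays.

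Dsp encodes desmoplakin, which anchors intermediate filaments at desmosomes. It read 12.01 and 11.62 in Derlin-1 control and 11.72 and 11.26 in Derlin-1 KO. The groups overlapped, and the log2 change was -0.33 (SE 0.24, 95% interval -0.90 to 0.25). It was -0.13 without Derlin-1 control replicate 1 and -0.097 without Derlin-1 KO replicate 2, and it was -0.52 and -0.55 without the other array of each group. Dsp on the Derlin-2 arrays read 10.58 and 10.99 in control and 10.59 and 10.80 in KO, a log2 change of -0.088 (SE 0.24). These values were all below those of the Derlin-1 line.

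Prox1 encodes the transcription factor that sets granule neuron identity. Its brightest probe read 12.40 and 12.21 in Derlin-1 control and 12.61 and 12.16 in Derlin-1 KO, so that the KO arrays held both the highest and the lowest value. The log2 change was 0.080 (SE 0.17, 95% interval -0.34 to 0.50). On the Derlin-2 slide the probe read 11.97 and 12.13 in control and 12.03 and 11.98 in KO, a log2 change of -0.040 (SE 0.17). The second Prox1 probe gave 0.011 for Derlin-1 and 0.25 for Derlin-2, where it read 11.32 and 11.72 in control and 11.75 and 11.78 in KO. The probes thus differed in sign in the Derlin-2 line, and with the brighter of them, which lies in the last eighth of the rows, left out the Prox1 change there was 0.25.

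Calb1 encodes calbindin, the calcium-binding protein that marks mature granule neurons. Its brightest probe read 14.15 and 13.81 in Derlin-1 control and 14.18 and 14.00 in Derlin-1 KO, which overlapped, with a log2 change of 0.11 (SE 0.14). With Derlin-2 it read 13.80 and 13.86 in control and 13.63 and 13.71 in KO. Both KO arrays were lower here, but the difference of -0.16 (SE 0.14, 95% interval -0.51 to 0.19) did not pass limma's test, with an adjusted p of 0.999. The other 2 Calb1 probes gave -0.028 and 0.080 in this line, so the direction was not shared by the 3 probes.

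**Figure D2:**
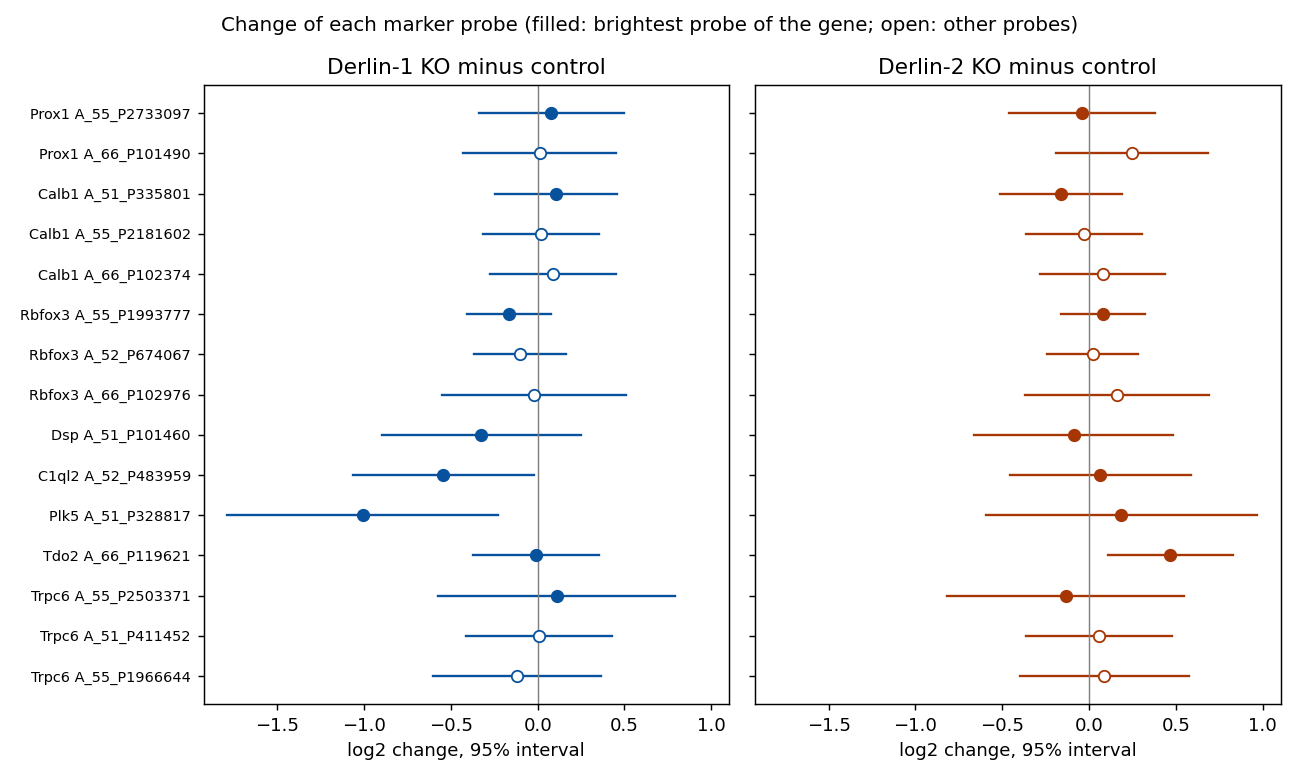
Log2 change of KO against control (x axis, with limma's 95% interval as a line) for each of the 15 marker probes (y axis) in the Derlin-1 line (left) and the Derlin-2 line (right); filled points are the brightest probe of a gene, open points the others. The intervals of Plk5 and C1ql2 in the Derlin-1 line and of Tdo2 in the Derlin-2 line lie to one side of 0, and those of the other probes include 0.

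For Derlin-2, both KO arrays lay above both controls for 1 of the 8 markers, Tdo2, against 17.9% of all genes, and below them for 1, Calb1, against 14.6%. Tdo2 encodes tryptophan dioxygenase, which opens the kynurenine pathway of tryptophan breakdown. Its probe read 9.33 and 9.31 in Derlin-2 control and 9.77 and 9.81 in Derlin-2 KO. The arrays of Derlin-2 control differed by 0.017 and those of Derlin-2 KO by 0.048, far less than the groups did. The log2 change was 0.47 (SE 0.15, 95% interval 0.11 to 0.83), a level 1.38-fold higher in KO, with an unadjusted limma p of 0.019 and an adjusted p of 0.774. In the Derlin-1 line Tdo2 read 10.11 and 9.75 in control and 10.02 and 9.82 in KO, and the log2 change was -0.009 (SE 0.15). Derlin-2 control was the lowest of the 4 groups, and the Derlin-2 KO mean of 9.79 ± 0.034 (SD, n = 2) did not differ beyond the spread from the Derlin-1 groups. The difference of the KO effects was -0.48 (SE 0.21), with an adjusted limma p of 0.852.

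Trpc6 encodes a cation channel of the transient receptor potential family, and its 3 probes did not run together. The brightest probe read 11.15 and 11.95 in Derlin-1 control and 11.65 and 11.67 in Derlin-1 KO, then 11.92 and 12.12 in Derlin-2 control and 12.09 and 11.68 in Derlin-2 KO. The control arrays of the Derlin-1 line enclosed its KO arrays, and the log2 changes were 0.11 (SE 0.28) and -0.13 (SE 0.28). Probe A_55_P1966644 read 12.05 and 11.50 in Derlin-1 control, 11.79 and 11.52 in Derlin-1 KO, 10.96 and 10.88 in Derlin-2 control, and 11.05 and 10.97 in Derlin-2 KO. It was higher on every Derlin-1 array than on every Derlin-2 array, by 0.75 on average, whereas the brightest probe was lower in the Derlin-1 line by 0.34 on average. Over the 8 arrays these 2 probes had a Pearson r of -0.78, and A_55_P1966644 had an r of 0.98 with the third probe, A_51_P411452. These r values describe 8 arrays of 2 slides. Which Trpc6 transcripts the probes cover is not given in the sources used here, so the values of the brightest probe cannot be read as those of the gene as a whole.

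**Figure D3:**
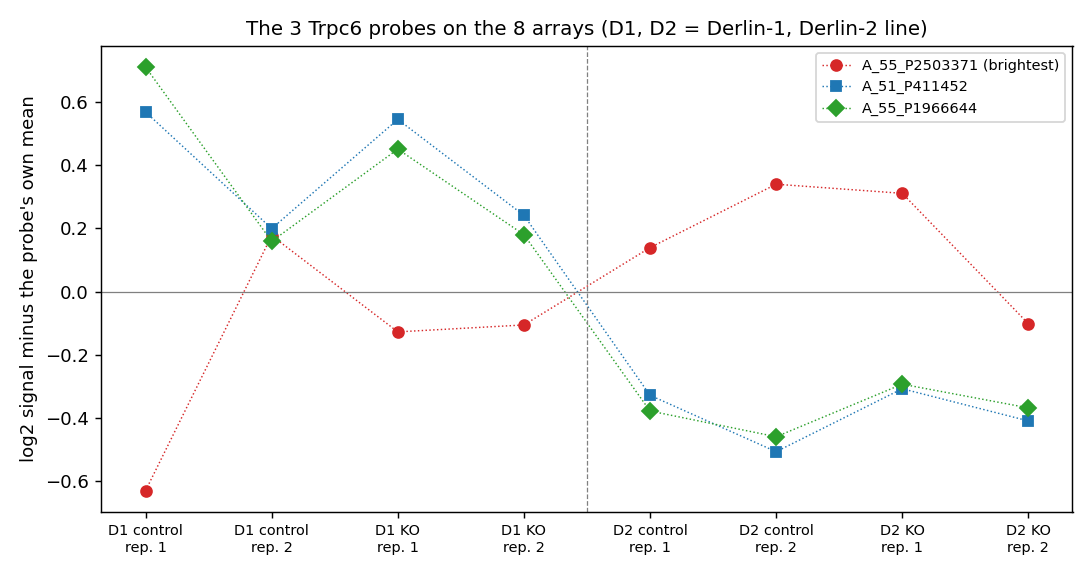
Log2 signal of the 3 Trpc6 probes, each minus its own mean over the 8 arrays (y axis), on the arrays of the Derlin-1 and Derlin-2 lines (x axis, divided by a dashed line). A_55_P1966644 and A_51_P411452 follow each other and lie higher in the Derlin-1 line, and the brightest probe, A_55_P2503371, runs the other way.

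The markers were then compared array by array. With the mean of its line subtracted from each value, Plk5 and C1ql2 had a Pearson r of 0.90 over the 8 arrays, Plk5 and Rbfox3 one of 0.90, and C1ql2 and Dsp one of 0.72. Over the 28 pairs of markers r ranged from -0.74 to 0.90 with a median of 0.22, and 19 pairs were above 0. The brightest Trpc6 probe had an r below 0 with every other marker, and the lowest r was its value with C1ql2. Probe A_55_P1966644 of Trpc6 instead had an r above 0 with each of them, from 0.50 with Rbfox3 to 0.79 with C1ql2. The r of each gene with the mean of the other markers was 0.81 for C1ql2, 0.68 for Rbfox3, 0.67 for Dsp and 0.67 for Plk5. It was lower for Prox1 (0.35), Tdo2 (0.31) and Calb1 (0.14), and was -0.68 for the brightest Trpc6 probe. These are descriptions over 8 arrays that share normalization. The genes whose pattern was most like the mean of the 8 markers were Taco1 (r of 0.996), Abt1 (0.983), Nhsl2 (0.983), Ptcd1 (0.982) and Hlf (0.979), and 0.925% of the 18047 genes compared had an r above 0.9.

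Plk5 and C1ql2 moved together on the Derlin-1 arrays and, with Tdo2, were the markers whose intervals left out 0. The 250 bases before the RefSeq starts of these genes are shown here, from the table of GRCm38.p6, 5′ to 3′ on the strand of the gene. Windows were matched for 7 of the 8 markers, and Calb1 was the other. Capitals mark matches to the GC box (GGGCGG or, on the other strand, CCGCCC), the CCAAT box (CCAAT or ATTGG) and the TATA box (TATAAA or TTTATA), where matches to a motif may overlap.
Plk5, chr10:80356209-80356458, + strand: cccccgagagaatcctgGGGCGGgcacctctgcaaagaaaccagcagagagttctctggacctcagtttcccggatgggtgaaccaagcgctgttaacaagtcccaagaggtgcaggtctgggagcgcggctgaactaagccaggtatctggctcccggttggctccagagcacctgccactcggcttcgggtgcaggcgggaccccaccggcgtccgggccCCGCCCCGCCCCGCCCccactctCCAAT
C1ql2, chr1:120340332-120340581, + strand: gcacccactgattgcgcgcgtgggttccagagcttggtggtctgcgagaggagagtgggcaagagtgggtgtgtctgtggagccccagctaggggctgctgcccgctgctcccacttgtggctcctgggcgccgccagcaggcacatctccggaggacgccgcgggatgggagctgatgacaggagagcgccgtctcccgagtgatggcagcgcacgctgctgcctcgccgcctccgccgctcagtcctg
Tdo2, chr3:81975729-81975978, - strand: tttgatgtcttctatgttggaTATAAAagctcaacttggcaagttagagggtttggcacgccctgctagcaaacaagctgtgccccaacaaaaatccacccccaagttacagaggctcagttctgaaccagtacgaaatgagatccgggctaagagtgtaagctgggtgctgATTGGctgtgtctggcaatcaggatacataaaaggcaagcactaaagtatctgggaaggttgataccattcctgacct
The Plk5 window held 4 matches to the GC box, of which 3 in a row share 1 base with each neighbour, and 1 to the CCAAT box at its end. The C1ql2 window held 0 matches to these motifs and 20 CpG dinucleotides, beside 16 in the Plk5 window, 3 in the Tdo2 window and a median of 6 over all windows. The Tdo2 window held 1 match to the TATA box and 1 to the CCAAT box. Of the 32851 windows of all genes, 32.7% held the GC box, 33.8% the CCAAT box and 12.4% the TATA box. The Plk5 and C1ql2 windows thus had no match to these motifs in common. Rbfox3, whose r with Plk5 was also 0.90, had 1 CCAAT box match in its window, as Plk5 did. Tdo2 had 1 CCAAT box match as well, and its r with Plk5 was 0.39. The part that these motifs had in the values was not tested.

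Single arrays carried much of the mean difference of the 8 markers in the Derlin-1 line. On leaving out 1 array, Rbfox3 stayed between -0.19 and -0.14 and Plk5 between -1.37 and -0.65. C1ql2 moved from -0.86 to -0.22 and Dsp from -0.55 to -0.097. Derlin-1 control replicate 1 was the highest of the 4 arrays for 5 of the 8 markers, beside 38.4% of all genes, and Derlin-1 KO replicate 2 was the lowest for 5, beside 22.4%. The mean deviation of the 8 markers from the line was 0.23 on Derlin-1 control replicate 1, -0.0071 on control replicate 2, 0.012 on KO replicate 1 and -0.23 on KO replicate 2. The corresponding Derlin-2 means lay between -0.024 and 0.043. A list of 24 other granule neuron genes deviated in the same order on the Derlin-1 arrays, with means, again for control replicates 1 and 2 and KO replicates 1 and 2, of 0.16, -0.053, 0.068 and -0.17. For 8 markers of CA1 pyramidal neurons, the main neurons of the neighbouring hippocampal field, the means were -0.42, 0.21, -0.24 and 0.44. Derlin-1 arrays high in granule neuron genes were thus low in CA1 genes, also between arrays of the same group. The CA2 and CA3 list, with means of -0.059, 0.11, -0.028 and -0.021 on these arrays, hardly differed between the KO replicates. Nor was the opposite course seen on Derlin-2 KO replicate 2, where the CA1 mean was -0.25 and the marker mean 0.0041. The part that the make-up of the dissected tissue had in the Plk5 and C1ql2 values was not tested.

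**Figure D4:**
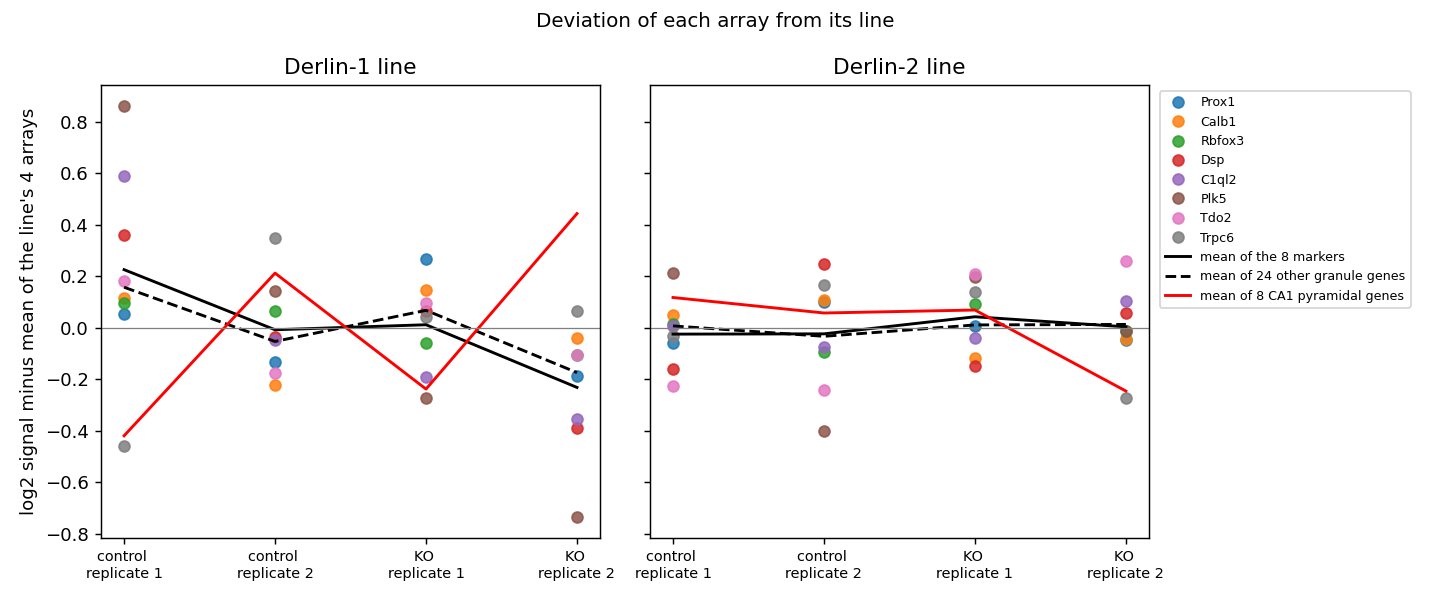
Log2 signal minus the mean of the 4 arrays of a line (y axis) on each array (x axis) for the 8 markers (points), with the mean of the 8 markers (black line), of 24 other granule neuron genes (dashed) and of 8 CA1 pyramidal genes (red). In the Derlin-1 line the marker mean goes from 0.23 on control replicate 1 to -0.23 on KO replicate 2 while the CA1 mean goes from -0.42 to 0.44.

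The lines also differed in the level of the markers. All 4 Derlin-1 arrays were above all 4 Derlin-2 arrays for 3 of the 8 markers, Dsp, C1ql2 and Prox1, against 18.6% of all genes, and below them for 0, against 16.3%. The average difference between the lines was 0.91 for Dsp, 0.85 for C1ql2 and 0.32 for Prox1, and the Derlin-1 arrays of Prox1 began only 0.030 above the highest Derlin-2 array. By probes other than the brightest, Calb1, Trpc6 and Rbfox3 were also higher on every Derlin-1 array. The 18.6% of all genes counts brightest probes only, so it is no background for these further probes. Over the 8 markers the median difference was 0.34, and the brightest Trpc6 probe was the only one with a negative value. Of the 24 other granule neuron genes, 14 were higher on every Derlin-1 array, with a median difference of 0.43, and 0 were lower on every one. The median over all genes was 0.011. The CA1 pyramidal list ran the other way, with a median of -1.15, and 4 of its 8 genes were lower on every Derlin-1 array. Its summed linear signal was 10600 to 13100 in Derlin-1 control and 11100 to 15000 in Derlin-1 KO, against 21500 to 21900 in Derlin-2 control and 16700 to 21700 in Derlin-2 KO, and all 8 genes were well above background on all 8 arrays. The choroid plexus median was -1.07, with 3 of 7 genes lower on every Derlin-1 array, and the interneuron median was -0.27, with 5 of 11. Medians of the CA2 and CA3, pan-neuronal, endothelial and oligodendrocyte lists lay between -0.20 and -0.029. Those of the newborn neuron, astrocyte, microglia and mossy cell lists lay between 0.023 and 0.19. Line and slide cannot be told apart here, and the share of these differences that goes with tissue make-up was not tested.

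**Figure D5:**
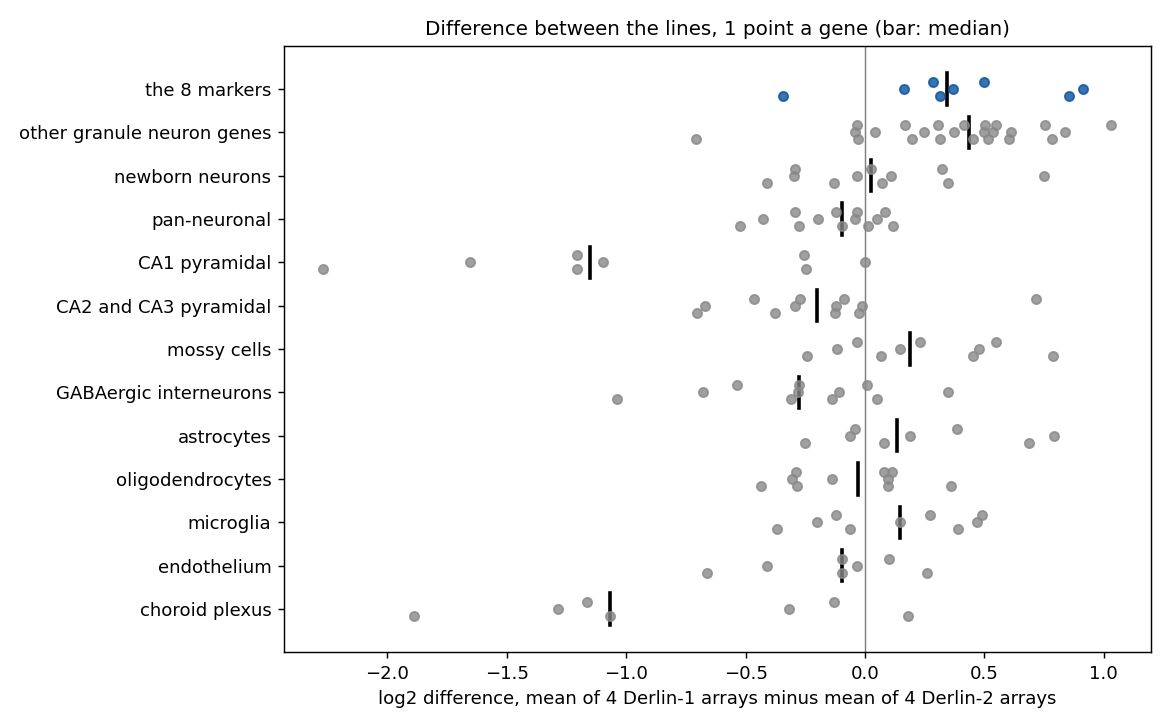
Difference of the mean log2 signal between the 4 Derlin-1 arrays and the 4 Derlin-2 arrays (x axis) for each gene (points) of the 8 markers and of marker lists for other cell types (y axis), with the median of each list as a bar. The 8 markers have a median of 0.34 and the other granule neuron genes one of 0.43. The CA1 pyramidal and choroid plexus lists have medians of -1.15 and -1.07.

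The wider families and pathways of the markers held 0 genes past limma's adjusted p of 0.05 in either line. As background for the counts of signs below, 11139 of all genes were lower and 8769 higher in Derlin-1 KO. In Derlin-2 KO, 9447 were lower and 10366 higher. Among the polo-like kinases, Plk2, which responds to neuronal activity, stood at 0.56 (SE 0.24) with Derlin-1, opposite in sign to Plk5, and Plk4 by -0.28 (SE 0.25). In the C1q-like family, C1ql1 and C1ql3 differed by -0.074 and -0.043 in the Derlin-1 line, and all 3 genes kept had values above 0 in the Derlin-2 line, up to 0.18. Of the canonical transient receptor potential channels, Trpc7 had the largest value, 0.53 (SE 0.16, adjusted limma p of 0.768) in Derlin-2 KO. Rbfox1, which like Rbfox3 encodes a neuronal splicing factor, stood at -0.25 (SE 0.12) with Derlin-1 and 0.020 with Derlin-2. Prox2 gave -0.13 and -0.060 in the 2 lines. Of 9 desmosome genes kept, 2 had positive and 7 negative values in the Derlin-1 line, with Ppl, for periplakin, at 0.40 (SE 0.16), and 6 were positive in the Derlin-2 line, where Dsg2, for a desmosomal cadherin, stood at 0.38 (SE 0.20). The 8 EF-hand calcium-binding genes had medians of 0.037 and 0.087.

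Around Tdo2, 10 of the 11 genes of the kynurenine pathway were kept. In the Derlin-1 line 8 were lower in KO and 2 higher, with a median of -0.23, and both KO arrays lay below both controls for 5, against 17.9% of all genes. Qprt, which acts at the end of the pathway, stood at -0.50 (SE 0.31) and Kmo, for kynurenine monooxygenase, at -0.47 (SE 0.21), while Tdo2 itself was near 0. With Derlin-2, 5 were higher and 5 lower, with Aadat at 0.64 (SE 0.38) and Kmo at -0.35 (SE 0.21). None of these values passed limma's test.

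Of the 24 other granule neuron genes, 16 were lower and 8 higher in Derlin-1 KO, with a median of -0.067, beside 11139 lower and 8769 higher of all genes. Maml2, for a coactivator of Notch signalling, stood at -0.58 (SE 0.21), Ryr1, for a calcium release channel, at -0.59 (SE 0.54), and Pdia5, for a protein disulfide isomerase, at 0.62 (SE 0.23). Both KO arrays lay below both controls for 3 and above them for 2, again against 17.9% and 16.2% of all genes. With Derlin-2, 14 were higher and 10 lower, with a median of 0.012 and Igfbp5, for a binding protein of insulin-like growth factors, at 0.35 (SE 0.20). Adjusted limma p-values of these genes were all above the threshold.

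Markers of other cells that the DG holds were read beside the granule neuron markers, and 0 of them passed limma's test in either line. For Derlin-2, where Tdo2 was higher in KO, 10 of the 11 newborn neuron genes kept had positive values, with a median of 0.24, and both KO arrays lay above both controls for 7, against 17.9% of all genes. The largest was Eomes, the factor of intermediate progenitors, at 0.94 (SE 0.25, adjusted limma p of 0.622), followed by Igfbpl1 at 0.52 (SE 0.098, adjusted limma p of 0.407). In the same line 10 of 11 interneuron genes had negative values, with a median of -0.14 and Npy at -0.52 (SE 0.15). Both KO arrays lay below both controls for 7 of these interneuron genes, against 14.6% of all genes. In the Derlin-1 line, where Plk5 and C1ql2 were lower in KO, the medians were -0.087 for newborn neurons, 0.28 for CA1 pyramidal, -0.098 for CA2 and CA3 pyramidal, 0.10 for mossy cell, 0.052 for interneuron and 0.27 for choroid plexus genes. Those for pan-neuronal, astrocyte, oligodendrocyte, microglia and endothelial genes lay between -0.14 and 0.0086, and all 9 microglia genes had negative values. In these lists both Derlin-1 KO arrays lay below both controls for 7 of 13 pan-neuronal, 6 of 9 microglia and 4 of 8 astrocyte genes. The count was 1 of 10 for oligodendrocyte and 1 of 7 for endothelial genes, against 17.9% of all genes. The Derlin-2 medians of the CA1, CA2 and CA3, mossy cell, pan-neuronal, astrocyte, oligodendrocyte, microglia, endothelial and choroid plexus lists lay between -0.16 and 0.25. The part that other cell types had in the values of the granule neuron markers was not tested.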

How the data were processed

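RNA of the dentate gyrus was measured on 8 arrays, 2 in each of 4 groups taken from the sample titles. Spot intensity comes from the deposited scanner output, from which Agilent Feature Extraction 10.7.1.1 had subtracted the background per the file headers. A further set of log2 values was deposited by the authors after quantile normalization in GeneSpring, relative to the median over all samples of an experiment with more arrays, and it served as an alternative. The authors' fold changes and regulation calls beside these values were not used. Gene names are those of the array annotation, and the number of arrays limits the precision.

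Spots with an outlier flag and control spots were left out. Signals under 1 were set to 1, log2 values were taken and quantile normalization was run across the 8 arrays, and the spots of the 300 probes printed repeatedly were averaged. A probe entered the tests if a group had it well above background on both arrays. A model of 4 group means was fitted to all 8 arrays with limma 3.58.1 in R 4.3.3 (4 residual and 2.08 prior degrees of freedom), with two-sided tests adjusted by the Benjamini-Hochberg method over all probes tested. With 2 arrays a group, the smallest two-sided p of an exact test is 0.333, which is why limma's pooled spread was used. A gene is given by its brightest kept probe.

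The alternatives were scaling to the 75th percentile, normexp, the deposited values, other filters, no last eighth of the rows, a single line, a trended spread, the replicate number as a block, the mean of all probes and leaving out each array. Normexp was run on the median spot and background signals, because the mean spot signal is not in the columns used here. The markers and all gene lists were chosen with earlier results of these data known. Named in the text are all 8 markers with their probes and, of each other list and line, genes among the 3 with the largest absolute change that were well above background on the line's 4 arrays.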

Additional observations from a re-analysis of the deposited data

How the results depend on the processing

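In the alternatives run, 0 of the 8 markers passed limma's threshold in either line or in the difference of the lines, and the lowest adjusted p was 0.474. A change of at least 1.5-fold alone, with no p, was met by 1 marker for Derlin-1 and by 2 in the difference of the lines, beside 4.11% and 8.87% of all genes. Of 421 recomputed log2 changes 398 kept their sign. The other 23 were near 0 or rested on 1 array or probe, 14 of them on leaving out an array. Other filters, a single line, a trended spread, the block and leaving out the other line's arrays left a line's log2 change as it was. These settings could not change its sign, so the 398 are not a measure of stability. Plk5, C1ql2, Dsp and Rbfox3 (Derlin-1) and Tdo2, Calb1 and Rbfox3 (Derlin-2) kept their sign throughout, except that Plk5 has no probe outside the last eighth of the rows.

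With normexp C1ql2 stood at -0.0012 in the Derlin-2 line, and with the 75th percentile Tdo2 stood at 0.0024 in the Derlin-1 line. Without the last eighth of the rows Prox1 gave 0.25 in the Derlin-2 line and -0.23 in the difference. With the mean of all probes Prox1 gave 0.10 and -0.058, and Trpc6 gave -1.9e-05 for Derlin-1, 0.0041 for Derlin-2 and -0.0041 in the difference. Leaving out 1 array at a time, the log2 change in the Derlin-1 line ranged from -0.55 to -0.097 for Dsp, from -0.062 to 0.28 for Calb1, from -0.15 to 0.31 for Prox1, from -0.19 to 0.17 for Tdo2 and from -0.29 to 0.51 for Trpc6. In the Derlin-2 line it ranged from -0.0059 to 0.14 for C1ql2, from -0.29 to 0.12 for Dsp, from -0.12 to 0.49 for Plk5, from -0.12 to 0.039 for Prox1 and from -0.34 to 0.071 for Trpc6. The difference of the lines ranged from -0.11 to 0.35 for Prox1 and from -0.16 to 0.65 for Trpc6.

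The median of the markers for Derlin-1 ranged from -0.18 to -0.0019 on leaving out an array and was -0.0086 without the last eighth of the rows or without Rbfox3. In the Derlin-2 line it was 0.027 with the 75th percentile, -0.053 with normexp, 0.029 with the deposited values, 0.066 without the last eighth of the rows, 0.077 with the mean of all probes and -0.040 without Rbfox3, and it ranged from -0.0064 to 0.033 on leaving out an array. The number of markers whose KO arrays lay beyond the controls was 3 for Derlin-1 and 2 for Derlin-2 with all arrays. Leaving out an array of the other line could not change it. For Derlin-1 it was 6 without control replicate 1, 6 without control replicate 2 and 5 without either KO replicate. For Derlin-2 it was 8 and 5 without control replicates 1 and 2, and 4 and 3 without KO replicates 1 and 2. In these settings 1 array is more easily beyond 2. No share over all genes is given for them, so these counts have no background. The difference between the lines, recomputed under settings chosen after seeing the data, had a median of 0.31 to 0.33 for the markers, 0.40 to 0.42 for the other granule neuron genes and -1.15 to -0.71 for CA1 genes, and over all genes it was -0.015 with the 75th percentile. With the 75th percentile and with normexp, 2 instead of 3 markers lay wholly above on the Derlin-1 arrays, beside 3332 and 3517 of 19919 genes. With the replicate block Plk5 stayed at -1.01 in the Derlin-1 line with an adjusted limma p of 0.972. Samples of the same number deviated together with an r of 0.25 for Derlin-1 and -0.098 for Derlin-2, so the numbers were not taken as pairs, and the block took the probes called in the Derlin-2 line from 18 to 0. The cause of these moves was not tested.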
